A study of Mus musculus with 8 samples.

Results

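The genes described are 10 members of the circadian clock machinery and its closest output in cortical GABAergic neurons, chosen by name out of 55450 annotated genes: the PAR bZIP factors Dbp, Tef and Hlf, the period genes Per1, Per2 and Per3, the cryptochrome genes Cry1 and Cry2, the nuclear receptor gene Nr1d2, and Arntl, which encodes BMAL1. The study sorted fluorescent nuclei from the cortex of juvenile mice and sequenced their nuclear RNA, with 1 cortex per library. Both groups carried a Cre driver active in GABAergic neurons and a Cre-dependent nuclear fluorescent reporter. Control mice were Thra+/+, and mutant mice were Thra+/AMI, in which the same Cre switched on an allele for a dominant-negative thyroid hormone receptor. The name of the driver, the strain and the time of day at which cortices were taken are not given in the labels. In all, 4 controls (1 to 4) and 3 mutants (6, 7 and 8) were compared, because the table labelled mutant 10 held the same counts as mutant 7 in 55220 of 55220 genes whose symbol is unique. The p-values measure the spread between these mice only.

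The clock of mammalian cells is a feedback loop of transcription. BMAL1 and its partner CLOCK bind E-box elements and switch on the period and cryptochrome genes, whose proteins return to the nucleus and inhibit that pair. Another arm holds the REV-ERB receptors, encoded by Nr1d1 and Nr1d2, which repress Arntl, and the ROR receptors, which activate it. The loop also drives Dbp, whose protein, like TEF and HLF, binds D-box elements in output genes, where the repressor NFIL3 competes with them.

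Within this set the mutants had less RNA of Dbp, Nr1d2, Hlf and Cry2, while Tef, Per1, Per2, Cry1 and Arntl did not pass the test. The mean level of Dbp in mutants was 44.5% of that in controls, that of Nr1d2 58.1%, that of Hlf 62.7% and that of Cry2 73.6%. All 4 called members were lower and 0 were higher, among the 9 members that could be tested (44.4%). A gene was called when its Benjamini-Hochberg adjusted p was under 0.05 in edgeR's quasi-likelihood test over all 16448 tested genes, of which 9.42% were called, 4.78% lower and 4.63% higher. The median log2 fold change, mutant over control, was -0.27 over the 9 members and -0.01 over all tested genes. Members were chosen with earlier results of these data known, so these comparisons with all genes describe the set and do not test it. In sorted bulk nuclei, fewer nuclei of one neuron class and less RNA per nucleus cannot be told apart. Nor can a group difference in the time of day of collection, which the labels do not give, be told apart from one of genotype.

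Total counts were 10747169 to 13804734 per library, with overlapping ranges in both groups. Thra, the mutated gene, was at 105.3 to 125.3 CPM (read counts scaled to the library total, with TMM factors) in controls and 77.5 to 96.1 CPM in mutants, or -0.39 on the log2 scale (SE 0.11, edgeR adjusted p 0.0543). Thra passed in 3 of 8 other fits, at adjusted p-values down to 0.00359, and without control 1 (0.0275) or control 4 (0.0149). Hr, a known target of thyroid hormone, fell from 41.7 ± 4.27 CPM (SD, n = 4) to 6.58 ± 1.46 CPM (SD, n = 3, edgeR adjusted p 3.75e-06). The GABAergic markers Gad1, Gad2 and Slc32a1 were present in every library, with a summed level of 954.4 to 1075 CPM in controls and 975.0 to 1188 CPM in mutants. Markers of glutamatergic neurons were present too, with a summed level of 69.69 to 133.0 CPM in controls and 75.15 to 123.6 CPM in mutants. Slc17a7, the highest of them, averaged 72.1 CPM in controls, against 568.2 CPM for Gad1, 402.7 CPM for Gad2 and 24.7 CPM for Slc32a1. Per kb of span not shared with other genes, Slc17a7 and Slc32a1 were alike in controls, at 5.94 and 6.06 CPM. The nuclei were thus not free of RNA from other cells. Of 19 tested markers of other cells (endothelial cells, microglia, astrocytes, oligodendrocytes and glutamatergic neurons), 1 was called, beside 9.42% of all tested genes. It was the oligodendrocyte gene Mog (log2 fold change 0.93), while the summed oligodendrocyte level overlapped (140.9 to 181.8 CPM in controls, 159.7 to 188.2 CPM in mutants). The microglial gene Csf1r did not pass (log2 fold change 0.61, edgeR adjusted p 0.055). Its groups did not overlap, as in 22% of all tested genes, while the summed microglial level overlapped (10.64 to 14.36 CPM in controls, 13.84 to 17.41 CPM in mutants). The microglial marker P2ry12 was listed at 0 in every library, and its whole span is shared with another gene. Control 4 stood apart in a way linked to gene length. Its median log2 difference from the mean of the other controls was -0.28 over genes spanning under 10 kb and 0.50 over genes spanning more than 100 kb. Control 4 and mutant 8 had 4 and 3 reads of Y-linked genes, against 5094 to 6644 in the other 5 libraries.

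**Figure D1:**
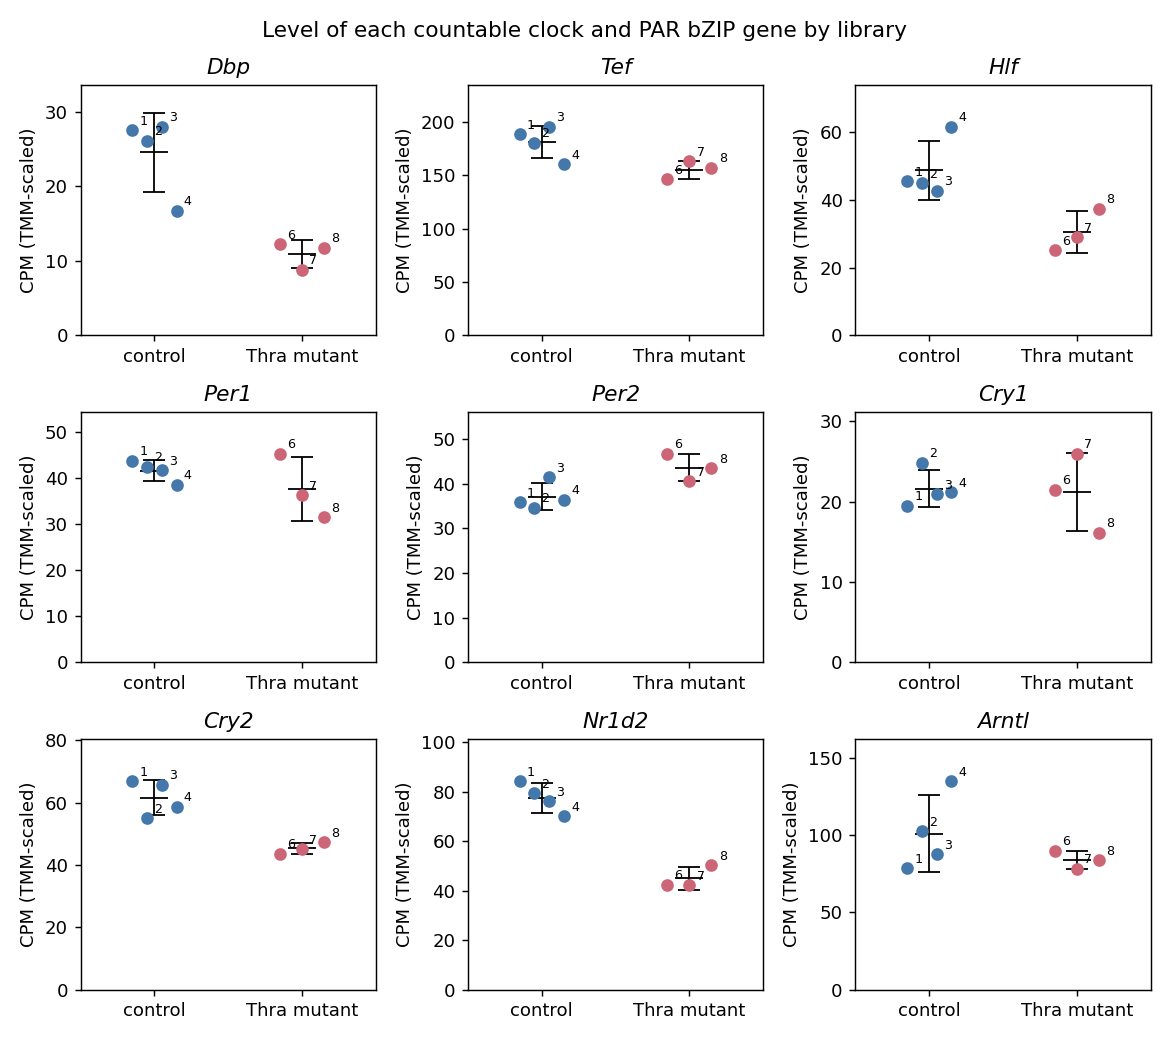
Level of each countable member by library, in TMM-scaled CPM on a linear axis from 0; points are libraries with their numbers, and the horizontal marks and bars are the mean and SD of 4 controls and 3 mutants. Dbp, Hlf, Cry2 and Nr1d2 have no overlap between groups, and control 4 lies below the other controls for Dbp and above them for Hlf and Arntl.

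Among the PAR bZIP genes, Dbp and Hlf fell and Tef did not pass the test. Dbp (ENSMUSG00000059824.12, GRCm38 chromosome 7, 45705088 to 45710203, plus strand) was at 27.6, 26.2, 28.0 and 16.8 CPM in controls 1 to 4 and at 12.3, 8.80 and 11.8 CPM in mutants 6, 7 and 8. Control 4 was the lowest control and still lay above every mutant. The log2 fold change of Dbp was -1.17 (SE 0.20, edgeR adjusted p 0.00362), the lowest among the members, and rested on 96 to 369 reads per library. Dbp spans 5116 bases, and 14.4% of that span is shared with Sphk2 on the other strand.

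Hlf (ENSMUSG00000003949.16, chromosome 11, 90336536 to 90390895, minus strand) encodes hepatic leukemia factor. Its level was 45.5, 45.0, 42.6 and 61.6 CPM in controls 1 to 4 and 25.1, 29.1 and 37.4 CPM in mutants 6, 7 and 8. Here control 4 was the highest library and mutant 8 the highest mutant, and the groups did not overlap. This amounts to -0.67 on the log2 scale (SE 0.17, adjusted p 0.0255). The call was lost without mutant 6 (-0.55, adjusted p 0.134), mutant 7 (-0.64, 0.123) or control 2 (-0.71, 0.0532).

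Tef (ENSMUSG00000022389.15, chromosome 15, 81802421 to 81826863, plus strand) encodes thyrotroph embryonic factor and had 1778 to 2573 reads per library. It was at 188.7, 180.6, 195.5 and 160.4 CPM in controls 1 to 4 and at 146.2, 162.9 and 156.9 CPM in mutants 6, 7 and 8. The groups overlapped only through control 4 and mutant 7. Its log2 fold change was -0.22 (95% interval -0.47 to 0.02, adjusted p 0.269).

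Whether the 3 PAR bZIP paralogs differed in response was tested on the log2 ratio of each pair within a library, in which the scaling of libraries cancels. The log2 ratio of Dbp to Tef was -2.77, -2.78, -2.80 and -3.26 in controls 1 to 4. In mutants 6, 7 and 8 it was -3.57, -4.20 and -3.73, so the groups did not overlap. The mean difference, mutant minus control, was -0.93 (exact permutation test over 35 arrangements of the libraries, two-sided, p = 0.0286, and 0.0857 after adjustment over the 3 pairs). No smaller unadjusted p is possible with 4 and 3 libraries. For Dbp to Hlf the difference was -0.47 (exact permutation p = 0.229, adjusted 0.229), and for Tef to Hlf it was 0.46 (exact permutation p = 0.143, adjusted 0.214). Control 4 had the lowest Dbp to Hlf ratio of all 7 libraries, -1.88, against -1.72 to -1.03 in mutants. Without control 4 the difference was -0.77 for Dbp to Hlf and 0.28 for Tef to Hlf. No pair passed after adjustment. With 3 pairs, a single pair at the smallest possible p stays at an adjusted 0.0857 and cannot pass alone. The lack of a passing pair therefore does not show that the paralogs respond alike.

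In the negative limb of the loop, Cry2 fell and Cry1, Per1 and Per2 did not pass. Cry2 (ENSMUSG00000068742.11, chromosome 2, 92403646 to 92434043, minus strand) was at 66.9, 54.9, 65.7 and 58.7 CPM in controls 1 to 4 and at 43.6, 45.0 and 47.3 CPM in mutants 6, 7 and 8. Every control was above every mutant, and the log2 fold change was -0.44 (SE 0.11, adjusted p 0.0266). Adjusted p was 0.0903 to 0.119 without any 1 of the 3 mutants and 0.0966 without control 3, at log2 fold changes of -0.47 to -0.41. Of the span of Cry2, 77.0% is shared with D930015M05Rik on the other strand, so its counts come from the remaining 6.98 kb.

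Cry1 (ENSMUSG00000020038.10, chromosome 10, 85131700 to 85185064, minus strand) was at 19.5, 24.8, 20.9 and 21.2 CPM in controls 1 to 4 and at 21.5, 25.9 and 16.2 CPM in mutants 6, 7 and 8. The lowest and the highest library were both mutants. Its log2 fold change was -0.03 (95% interval -0.40 to 0.34, adjusted p 0.950), and the sign turned without mutant 8 (0.14) or control 2 (0.04).

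Per1 (ENSMUSG00000020893.17, chromosome 11, 69095217 to 69109960, plus strand), which is also induced by neuronal activity, was at 43.7, 42.4, 41.7 and 38.6 CPM in controls 1 to 4 and at 45.2, 36.3 and 31.5 CPM in mutants 6, 7 and 8. The mutants were spread on both sides of the controls. On the log2 scale the difference was -0.14 (95% interval -0.44 to 0.15, adjusted p 0.604), and it was -0.30 without mutant 6 and -0.02 without mutant 8.

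Per2 (ENSMUSG00000055866.9, chromosome 1, 91415982 to 91459324, minus strand) was the only member with a positive log2 fold change in the fit to all 7 libraries, 0.23 (95% interval -0.02 to 0.49, adjusted p 0.263). It was at 35.9, 34.6, 41.5 and 36.5 CPM in controls 1 to 4 and at 46.7, 40.6 and 43.6 CPM in mutants 6, 7 and 8. Control 3 and mutant 7 made the groups overlap.

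Per1 and Per2 can be read beside the immediate early genes, which neuronal activity induces. Of 9 tested immediate early genes 3 were called higher, Npas4 (log2 fold change 1.11), Fos (0.83) and Nr4a1 (0.58), beside the 4.63% of all tested genes called higher. For Fos the groups overlapped, with mutant 8 at 14.9 CPM and control 2 at 15.1 CPM. Log2 fold changes of the 9 genes ran from -0.44 to 1.11 with a median of 0.52, and 1 of them was negative. The list of 10 genes had a summed level of 154.5 to 180.2 CPM in controls and 218.3 to 248.1 CPM in mutants. Its part in the values of Per1 and Per2 was not tested.

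Per3 (ENSMUSG00000028957.12, chromosome 4, 151003652 to 151044665, minus strand) had 0 counts in every library, and this 0 is a property of the counting. The whole span of Per3 lies inside Camta1, although no exon of Per3 overlaps an exon of that gene. All 1351 of 1351 protein-coding genes whose span is wholly shared with other genes had 0 counts in all 7 libraries, among them 749 shared only with the other strand and 325 only with the same strand. Of 6843 protein-coding genes with up to 25% of their span shared, 2.72% were at 0. The deposited counts thus behaved as counts over whole gene spans, introns included, in which positions shared by genes on either strand were dropped. Per3 was therefore not measured, and the same holds for the clock genes Ciart and Usp2 and the output gene Wee1, whose spans are wholly shared too.

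**Figure D2:**
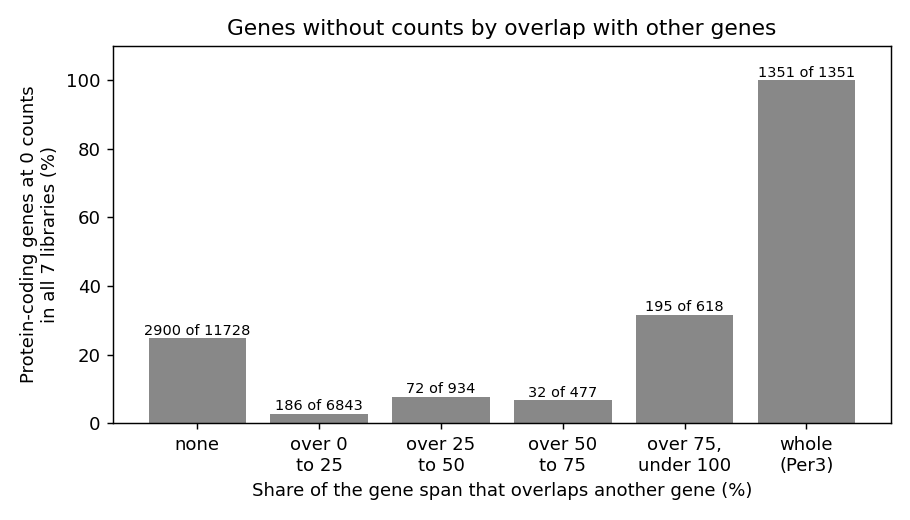
Percent of protein-coding genes with 0 counts in all 7 libraries (vertical axis, from 0), by the share of the gene span that overlaps another gene on either strand; the number of genes stands on each bar. All genes of the last class, which holds Per3, are at 0, against 2.72% of those with up to 25% shared. The 24.7% at 0 among genes with no shared span includes genes silent in these nuclei.

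In the receptor arm, Nr1d2 (ENSMUSG00000021775.11, chromosome 14, 18204054 to 18239127, minus strand), which encodes the repressor REV-ERB beta, had the lowest adjusted p of the members. It was at 84.4, 79.4, 76.3 and 70.2 CPM in controls 1 to 4 and at 42.5, 42.3 and 50.3 CPM in mutants 6, 7 and 8. The lowest control exceeded the highest mutant by 19.9 CPM. Its log2 fold change was -0.78 (SE 0.11, adjusted p 0.00114) on 462 to 1066 reads per library. No part of its span is shared with another gene.

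Its paralog Nr1d1, which is not among the 10 genes, was at 17.1 to 25.5 CPM in controls and 11.3 to 19.8 CPM in mutants, and its log2 fold change was -0.46 (SE 0.21, adjusted p 0.228). Nr1d1 lies tail to tail with Thra on the other strand, and 14.5% of its span is shared with it. Without both libraries that lack Y-linked reads, control 4 and mutant 8, Nr1d1 had a log2 fold change of -0.78 (adjusted p 0.0324); it passed in this 1 of 8 other fits and in 0 of the 7 fits without 1 library. Without 1 library it ran from -0.30 (mutant 7 left out, adjusted p 0.593) to -0.73 (mutant 8 left out, adjusted p 0.0833).

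Arntl (ENSMUSG00000055116.8, chromosome 7, 113207465 to 113314126, plus strand), the target of this repressor and the activator of the loop, was at 78.7, 102.5, 87.5 and 135 CPM in controls 1 to 4 and at 89.8, 78.4 and 83.6 CPM in mutants 6, 7 and 8. Control 4 stood above all other libraries and the remaining controls overlapped with the mutants. Its log2 fold change was -0.27 (95% interval -0.62 to 0.09, adjusted p 0.386), and -0.09 without control 4 (adjusted p 0.658). In the fit with an offset for genomic length it was -0.26 (adjusted p 0.0982).

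The groups did not overlap for 4 of the 9 tested members, all of them lower in mutants, which was the case for 10.7% of all tested genes (22% in either direction). These 4 were the 4 called members. Dbp and Nr1d2 were called in each of the 7 fits without 1 library and in each of 8 other fits, whereas Hlf was called in 4 and Cry2 in 3 of the fits without 1 library. Without both libraries that lack Y-linked reads the log2 fold changes were -1.37 for Dbp, -0.92 for Nr1d2, -0.71 for Hlf and -0.50 for Cry2, and all 4 were called.

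**Figure D3:**
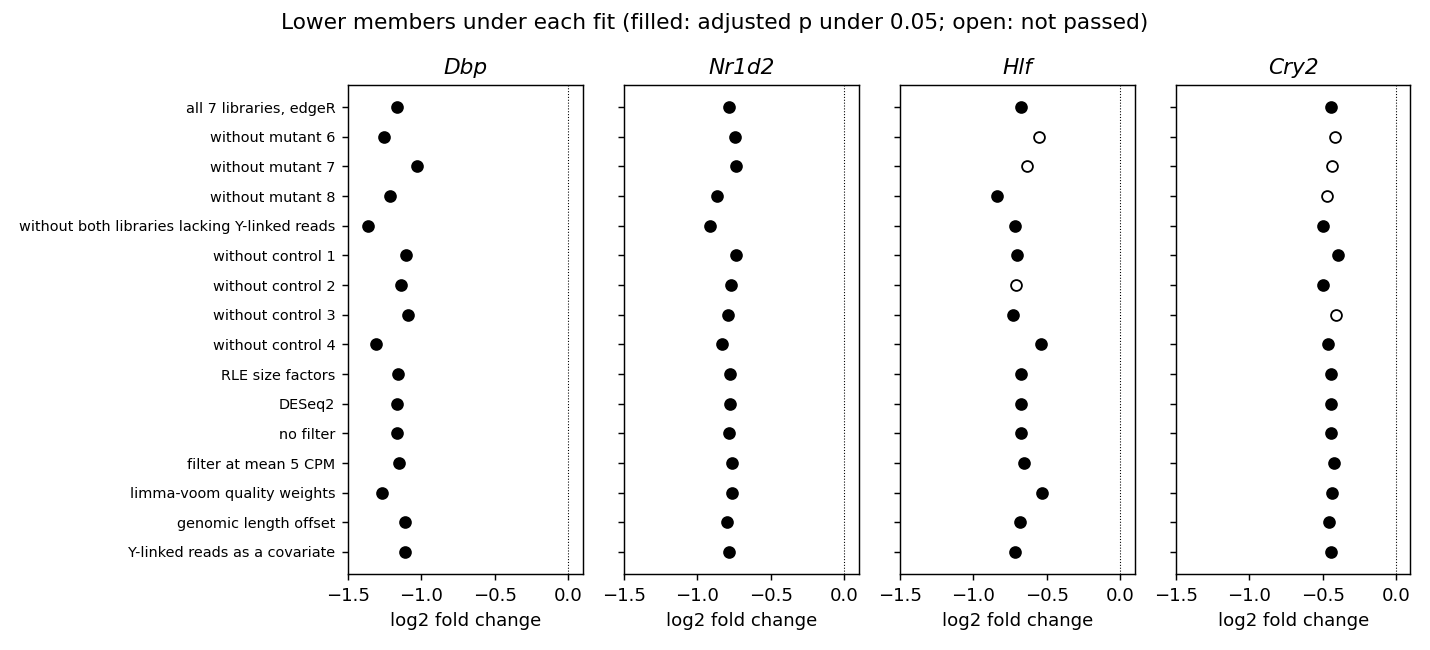
Log2 fold change, mutant over control, of the 4 lower members under each fit (rows); filled points had an adjusted p under 0.05 and open points did not, and the dotted line is 0. Dbp and Nr1d2 are filled in every row, while Hlf is open without control 2, mutant 6 or mutant 7 and Cry2 is open without control 3 or any mutant.

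The promoters of the 4 lower members are shown because these are the genes that were called. Upstream windows of 250 bases before the RefSeq start (build GRCm38.p6) were held for 9 of the 10 genes. Both strands were searched for the E-box CACGTG, the D-box TTATGTAA or TTACGTAA, the cyclic AMP response element TGACGTCA and the hexamer AGGTCA, which is a core of thyroid hormone, REV-ERB and ROR binding elements. Over all 32851 upstream windows these were found in 6.02%, 0.931%, 1.55% and 14% respectively. The letters are written 5' to 3' on the strand of the gene, with found motifs in capitals. For Hlf and Cry2 they run up to the RefSeq start, which lies upstream of the GENCODE gene. For Dbp and Nr1d2 they stop just before the first base of the GENCODE gene, and the search went on to the RefSeq start. Dbp lies at chr7:45704997-45705087, Nr1d2 at chr14:18239128-18239356, Hlf at chr11:90390918-90391167 and Cry2 at chr2:92434070-92434319.
Dbp: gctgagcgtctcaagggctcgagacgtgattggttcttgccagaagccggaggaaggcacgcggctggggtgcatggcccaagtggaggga
Nr1d2: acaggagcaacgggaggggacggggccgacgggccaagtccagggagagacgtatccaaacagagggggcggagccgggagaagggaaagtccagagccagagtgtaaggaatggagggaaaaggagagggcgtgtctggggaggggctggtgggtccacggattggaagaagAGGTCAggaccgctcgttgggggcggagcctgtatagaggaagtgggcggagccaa
Hlf: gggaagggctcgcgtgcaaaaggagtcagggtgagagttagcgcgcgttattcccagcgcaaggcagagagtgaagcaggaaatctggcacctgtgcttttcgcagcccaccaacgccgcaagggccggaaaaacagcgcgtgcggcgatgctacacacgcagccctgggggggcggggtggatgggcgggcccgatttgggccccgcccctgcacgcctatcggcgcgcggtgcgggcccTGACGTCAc
Cry2: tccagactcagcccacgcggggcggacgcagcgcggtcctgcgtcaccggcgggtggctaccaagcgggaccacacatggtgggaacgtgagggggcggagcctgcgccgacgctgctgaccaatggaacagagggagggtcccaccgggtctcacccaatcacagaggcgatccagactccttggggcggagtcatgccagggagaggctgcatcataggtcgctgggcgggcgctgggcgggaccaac
The window of Nr1d2 holds AGGTCA once, 77 bases before the RefSeq start, and that of Hlf holds TGACGTCA once, 9 bases before it. No motif of the search was found in the windows of Dbp and Cry2. Among the members that were not called, CACGTG was found in both windows of Tef, in 1 of the Per1 windows and in that of Cry1. AGGTCA was found once more, on the other strand of that Per1 window. The windows of Tef and Per1 precede RefSeq starts but lie inside the GENCODE genes, not upstream of them. The window of Per3 holds the D-box TTATGTAA at 2 places, 205 and 158 bases before the start. Elements elsewhere in these genes were not searched.

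Levels were compared between genes as control means of CPM per kb of unshared span, a scale that mixes exon and intron reads. Exons make up 6.26% (Cry1) to 56% (Dbp) of the unshared span of these genes, with 35.7% for Cry2, 31.6% for Tef and 7.1% for Arntl, and the order is not corrected for this share. On it the order in controls was Cry2 (8.82 ± 0.820, SD, n = 4), Tef (7.48 ± 0.627), Dbp (5.63 ± 1.21), Per1 (2.82 ± 0.148), Nr1d2 (2.21 ± 0.169), Arntl (0.968 ± 0.237), Hlf (0.896 ± 0.160), Per2 (0.856 ± 0.0696) and Cry1 (0.405 ± 0.0427). Neighbours overlapped between Cry2 and Tef, and among Arntl, Hlf and Per2. The first 4 genes of this order are also the 4 with the highest exon shares (38.2% for Per1), and the last, Cry1, has the lowest. In mutants, on the same scale, Dbp was at 2.5 ± 0.429 (SD, n = 3) and overlapped with Per1 at 2.55 ± 0.474, which lay well below it in controls. Among controls the SD was 24.5% of the mean for Arntl, 21.6% for Dbp and 17.9% for Hlf, and 5.24% to 10.5% for the other 6.

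Other genes of the clock were taken from a list of 21, of which 18 were tested. Of these, 1 fell (Rora) and 1 rose (Nfil3), or 11.1%, beside the 9.42% of all tested genes. The median log2 fold change of the list was -0.05. Nfil3 (chromosome 13, 52967209 to 52981073), the repressor that shares the D-box with the PAR bZIP factors, was at 9.03, 7.55, 8.66 and 6.85 CPM in controls 1 to 4 and at 16.2, 15.7 and 9.83 CPM in mutants 6, 7 and 8. Mutant 8 was nearer to the controls than to the other mutants, yet the groups did not overlap. Its log2 fold change was 0.79 (SE 0.21, adjusted p 0.0318). The call was lost without mutant 6 (0.66), mutant 7 (0.70), control 2 (0.76) or control 3 (0.83), at adjusted p-values of 0.0661 to 0.164.

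Rora (chromosome 9, 68653786 to 69388246), which encodes the activating receptor ROR alpha, was at 367.2, 591.4, 500.0 and 1178 CPM in controls 1 to 4 and at 341.2, 285.9 and 281.6 CPM in mutants 6, 7 and 8. Its log2 fold change of -1.12 (SE 0.32, adjusted p 0.0459) moved to -0.68 without control 4 (adjusted p 0.00772). In DESeq2 it did not pass (adjusted p 0.111), and it passed in 2 of the 7 fits without 1 library and in 4 of 8 other fits. Rora spans 734461 bases, the class of genes in which control 4 was high.

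The partners and regulators of the loop that were not called, 16 genes, had log2 fold changes from -0.79 to 0.61. They include Clock itself (0.06) and the kinase genes Csnk1d (-0.09) and Csnk1e (-0.02), whose products phosphorylate PER proteins. Cipc, an inhibitor of CLOCK, was at -0.34 (adjusted p 0.101), and its groups did not overlap, nor did those of Csnk1d. Over the list, groups did not overlap for 4 of the 18 tested genes, beside 22% of all tested genes. Cipc passed with the genomic length offset (adjusted p 0.0490) and in limma-voom with quality weights (0.0248).

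Of the 4 genes listed as clock output, 3 were tested. Pdxk (chromosome 10, 78436744 to 78464975), which encodes pyridoxal kinase and is a known target of the PAR bZIP factors in brain, was at 76.3, 65.3, 78.4 and 77.5 CPM in controls 1 to 4 and at 43.4, 46.8 and 42.9 CPM in mutants 6, 7 and 8. The lowest control was 18.4 CPM above the highest mutant. The fall of Pdxk was -0.74 on the log2 scale (SE 0.11, adjusted p 0.00119), and Pdxk was called in every fit. Of its span, 7.68% is shared with Mir6908 and 4921516A02Rik, and 39.0% of its exon bases overlap exons of these genes. Alas1 (-0.41, adjusted p 0.0792), which starts heme synthesis, and Por (-0.17, adjusted p 0.345), the reductase of cytochrome P450 enzymes, did not pass. Groups did not overlap for either gene, as in 22% of all tested genes, though for Alas1 the lowest control (61.6 CPM) was close to the highest mutant (61.4 CPM).

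**Figure D4:**
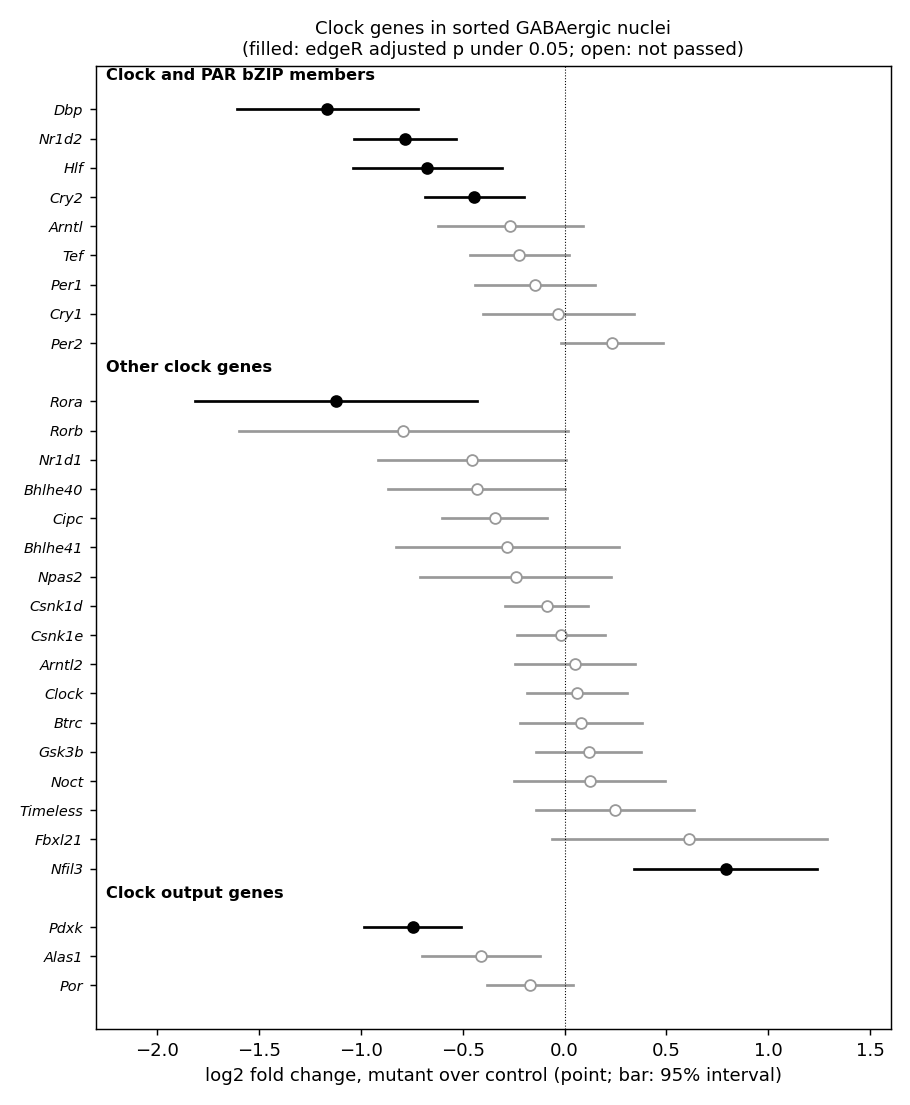
Log2 fold change, mutant over control (horizontal axis), with 95% intervals from the edgeR fit to all 7 libraries, for the 9 countable members, 17 of the 18 tested other clock genes and 3 output genes; filled black points passed at an adjusted p under 0.05. Dbp, Nr1d2, Hlf and Cry2 lie left of 0, Nfil3 right of it, and the intervals of Tef and Per2 just reach 0.

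The genes most like Dbp across libraries were found among 11792 tested genes that averaged at least 5 CPM (Dbp included), as those with the smallest root mean square difference in log2 CPM after centring each gene on its own mean over the 7 libraries. They were 1500009C09Rik (0.16), Slc30a3 (0.16), Shisa8 (0.17), Inpp5j (0.18) and Ankrd9 (0.19). Slc30a3, the zinc transporter of synaptic vesicles, went from 150.9 ± 15.9 CPM (SD, n = 4) to 70.2 ± 10.9 CPM (SD, n = 3), a log2 fold change of -1.10. The measure follows the groups, since all 5 genes were called lower, and it also follows the low value of control 4.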

How the data were processed

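Per the labels' protocols, cDNA from sorted nuclei was made with SMART-Seq v4 and sequenced paired-end after Nextera XT preparation, without molecular identifiers. The authors deposited read counts per gene, whole numbers without normalization. Bowtie2 2.5.3 and the builds mm10 and GRCm38 are named per the submitters' processing notes; the counting program and strand setting are not given in the sources used here. Symbols, coordinates and overlaps came from GENCODE M21 (GRCm38), which matched all 55450 identifiers.

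Genes were kept by filterByExpr (least count 10, least total 15), scaled by TMM and fitted with edgeR 4.0.16 in R 4.3.3 (quasi-likelihood, robust, group only, two-sided), with Benjamini-Hochberg adjustment over all tested genes. Intervals are 95% from the fit. At the lowest total, 1 CPM is about 10.7 reads. Alternatives were RLE size factors, DESeq2 1.42.0, no filter, a mean of 5 CPM, limma 3.58.1 voom with quality weights, a genomic length offset and removal of each library; chosen after seeing the data were a fit without both libraries lacking Y-linked reads and one with that lack as a covariate. The edgeR, length offset, DESeq2 and limma-voom fits were also run on simulated counts. Those held no gene-length trend and no outlying library, so they do not cover what set control 4 apart. The log2 ratios used a prior count of 0.5 and the likeness to Dbp a prior count of 2. Text names all members, Thra, Hr, Nr1d1, called clock and output genes and the 5 genes most like Dbp. Mog, called immediate early genes, and the uncalled Csf1r, Clock, Csnk1d, Csnk1e, Cipc, Alas1 and Por were named after their values were seen. The design was written for 7 libraries, since mutant 10 was known to repeat mutant 7. 1 gene of the other clock genes is not reported here by name. Members and lists were chosen with earlier results of these data known.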

Additional observations from a re-analysis of the deposited data

Results flagged for a closer look

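In 18 values, the 4 controls were searched for 1 library far from the rest, by the gap to its nearest neighbour divided by the range of the controls, against Dixon's critical value for 4 samples. There were 5 such values, where chance gives about 0.9, and several rest on the same genes. Control 4 was low for Dbp (16.8 CPM against 26.2 to 28.0, gap over range 0.835) and high for Hlf (61.6 CPM against 42.6 to 45.5, 0.848). The same library therefore stood apart in the log2 ratios of Dbp to Tef (-3.26 against -2.80 to -2.77, 0.946) and of Dbp to Hlf (-1.88 against -0.78 to -0.60, 0.862). Without control 4 the log2 fold changes were -1.31 for Dbp and -0.54 for Hlf, and both were called. Control 2 was low for Pdxk (65.3 CPM against 76.3 to 78.4, 0.839).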

How the results depend on the processing

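The count of 4 called members held in all alternatives that kept the 7 libraries and without both libraries lacking Y-linked reads; without 1 library it ran from 2 to 4. For the other clock genes the count of 2 was 1 with DESeq2, with no filter or with the filter at a mean of 5 CPM, where Rora was lost, 3 with the genomic length offset or limma-voom with quality weights, where Cipc was added, and ran from 0 to 2 without 1 library. Ranges of log2 fold changes without 1 library were -1.31 to -1.03 for Dbp, -0.86 to -0.74 for Nr1d2, -0.84 to -0.54 for Hlf, -0.49 to -0.40 for Cry2 and -0.19 to 0.14 for Cry1, which was also 0.12 without both libraries lacking Y-linked reads. Per1 ran from -0.30 to -0.02. The Dbp to Tef log2 ratio difference ran from -1.06 to -0.75 without 1 library, where the smallest possible exact p, 0.0667 or 0.100, is above the threshold. No paired analysis was possible because the groups share no replicate numbers. Over all genes, 734 were called without mutant 7 and 2347 without control 4, against 1549 with all 7 libraries. The lowest count of a tested member was 96 reads, for Dbp in mutant 7.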
